A study of Homo sapiens with 9 samples.

Results

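The genes described here were the 4 human FOXO transcription factors, FOXO1, FOXO3, FOXO4 and FOXO6, and 6 genes known to rise when FOXO is active, IRS2, SESN1, SESN3, CITED2, PIK3IP1 and CCNG2. They were taken by gene symbol, and all 10 were found among the 22295 entries of a table of FPKM values (fragment counts scaled to transcript length and to the mapped fragments of the library). All 10 had a mean of at least 0.1 FPKM over the libraries and were among the 15551 entries tested. RNA-seq was done on 9 libraries of U251, an established human glioblastoma cell line, in 3 groups of 3. The sh-Luci-3d cells carried a lentiviral control hairpin against luciferase for 3 days post infection (dpi). The sh-Ptbp1-3d and sh-Ptbp1-7d cells carried a hairpin against PTBP1, an RNA-binding protein that represses neuronal exons, for 3 and 7 dpi. By the study's methods the lentivirus also carried a fluorescent marker. Cells were grown in medium with fetal bovine serum, and those for reprogramming were moved at 2 dpi into a neuronal induction medium. That medium is listed with the supplements N2 and B27, with forskolin, which raises cAMP, and with dorsomorphin, and no serum is listed. The medium of the sequenced cells is not stated separately. A 7 dpi library with the control hairpin was not analysed here, so the duration of the knockdown, the time in culture and any time in this medium cannot be told apart in any comparison with sh-Ptbp1-7d. The labels do not say whether the 3 libraries of a group came from separate cultures, so p-values measure only the spread between these samples.

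FOXO proteins are forkhead transcription factors that act at the far end of insulin and growth factor signalling. When PI3K is active, the kinase AKT phosphorylates them, 14-3-3 proteins bind them, and they are held in the cytoplasm. When the pathway is quiet they enter the nucleus and switch on genes of cell cycle arrest, stress resistance, autophagy and death, together with genes that feed back on the pathway itself. In glioma, where PI3K is often active, FOXO activity is usually low, and FOXO factors are known for holding neural stem cells in quiescence. FPKM values measure mRNA and say nothing on the phosphorylation, the location or the amount of FOXO protein.

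PTBP1, the targeted gene, stood at 115.7 FPKM in the control, 63.9 FPKM after 3 days of knockdown and 50.5 FPKM after 7 days. The FPKM values summed to between 367412 and 404922 per library, and since the read depth behind them is not known, counting error could not be put into an interval. Of 8 glioma and astroglia markers, VIM, NES, SOX2, CD44 and TNC were well above 10 FPKM in every library, whereas GFAP and S100B were at or below 1.15 FPKM and CHI3L1 was listed at 0 in all 9. The summed level of this list was 4444 to 4568 FPKM in sh-Luci-3d, but 4551 to 4861 in sh-Ptbp1-3d and 1444 to 1536 in sh-Ptbp1-7d. That of 6 neuron markers was 263.7 to 314.6, 332.7 to 352.4 and 153.1 to 161.4 FPKM, and that of 5 blood and immune markers, with CD3E at 0 throughout, was 10.2 to 11.4, 10.7 to 11.3 and 16.1 to 19.0. The first and second sums were lower and the last higher at 7 dpi, and each is carried mainly by 1 gene, VIM, TUBB3 and CD68. Others went the other way from 3 to 7 dpi of knockdown, with means of 25.0 and 77.6 FPKM for TNC, 124.5 and 144.8 for SOX2 and 20.3 and 38.9 for MAP2. The part of these shifts in the results that follow was not tested. The library sh-Ptbp1-3d replicate 3 stood apart in that it alone held STMN2, at 11.5 FPKM against 0 in the other 8, and had DCX at 2.15 FPKM against at most 0.0346 elsewhere. Without STMN2 and DCX the neuron sum of that library was 338.8 FPKM. FOXO6, PIK3IP1, IRS2 and SESN3, which were highest of their group there, are given with and without it. In such bulk samples, fewer cells of a type and less RNA per cell cannot be told apart.

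At 7 dpi the balance of the FOXO mRNAs had shifted. FOXO1 and FOXO6 rose and FOXO3 fell, while FOXO4 did not pass the test. Among the 6 targets, SESN3 fell past the thresholds, IRS2 and CCNG2 fell by less than a fold of 2, and SESN1, CITED2 and PIK3IP1 did not pass. No target rose past the thresholds. The thresholds for 7 against 3 dpi of knockdown were an FDR below 0.01 (limma on log2(FPKM + 0.1), Benjamini-Hochberg) together with more than a 2-fold change. Of the 10 genes 4 passed, 2 higher and 2 lower, against 14.2% of all genes tested (8.31% higher and 5.9% lower). On FDR alone 6 of 10 passed, 2 higher and 4 lower, against 35.8% of all genes (20.3% higher and 15.5% lower). The groups did not overlap for 7 of 10, against 62.3% of all genes. The median difference of the 10 genes was -0.08 on the log2 scale, that of the 6 targets -0.32 and that of all genes tested 0.09. The plot of single values shows each gene in every library.

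FOXO1, the FOXO factor best known from insulin responses in liver and from vessel growth, lies on chromosome 13 from 40469953 to 40666597 on the minus strand (GRCh38). It stood at 1.62, 1.67 and 1.53 FPKM in sh-Luci-3d. The sh-Ptbp1-3d libraries held 1.60, 1.89 and 1.75 FPKM. Those of sh-Ptbp1-7d held 6.96, 6.73 and 6.003 FPKM. The 6 libraries of 3 dpi formed a narrow band and every 7 dpi library lay far above it. The means were 1.61 ± 0.0726, 1.75 ± 0.142 and 6.56 ± 0.498 FPKM (SD, n = 3). The mean in sh-Ptbp1-7d was 3.76 times that in sh-Ptbp1-3d, a log2 difference of 1.85 (SE 0.122, limma adjusted p = 7.02e-07). Against sh-Luci-3d, which is a comparison of the same 7 dpi libraries, the log2 difference was 1.96 (adjusted p = 4.49e-07). Between the groups of 3 dpi it was 0.11 (SE 0.122, adjusted p = 0.878). FOXO1 was among the candidates that the study chose on these same libraries, so its rise is not independent evidence.

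FOXO3, the most widely expressed FOXO factor and a regulator of quiescence, autophagy and apoptosis, lies on chromosome 6 from 108559835 to 108684774 on the plus strand. Its values were 27.4, 27.8 and 25.7 FPKM in sh-Luci-3d. In sh-Ptbp1-3d they were 29.95, 29.98 and 26.6 FPKM. In sh-Ptbp1-7d they were 11.8, 12.8 and 9.81 FPKM. The groups of 3 dpi overlapped, and no 7 dpi library came near them. FOXO3 in sh-Ptbp1-7d was at 39.7% of its mean in sh-Ptbp1-3d, a log2 difference of -1.33 (SE 0.103, limma adjusted p = 2.36e-06). The difference was -1.24 against sh-Luci-3d (adjusted p = 3.98e-06) and 0.10 between the groups of 3 dpi (SE 0.103, adjusted p = 0.872). FOXO3B, a processed pseudogene on chromosome 17 that is nearly a copy of FOXO3 and was named after its values were seen, stood at 4.09 ± 0.219, 4.11 ± 0.514 and 3.60 ± 0.698 FPKM (SD, n = 3) in the 3 groups. How reads that match both were counted is not given in the sources used here, so a share of either value may belong to the other gene. FOXO3B also lies inside the protein-coding gene ZNF286B on the same strand, so its values may hold reads of that gene. The log2 difference of FOXO3B between 7 and 3 dpi was -0.19 (adjusted p = 0.307).

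FOXO4, a factor linked to cell cycle arrest and senescence, lies on chromosome X from 71096197 to 71103535 on the plus strand. It stood at 1.55, 1.21 and 2.06 FPKM in sh-Luci-3d, at 2.22, 1.80 and 1.86 FPKM in sh-Ptbp1-3d and at 2.36, 2.04 and 1.82 FPKM in sh-Ptbp1-7d. All 3 groups overlapped. The log2 difference of FOXO4 from 3 to 7 dpi of knockdown was 0.08 (limma adjusted p = 0.771), and it turned to -0.10 after quantile normalization.

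FOXO6, the member of the family most tied to brain, lies on chromosome 1 from 41361922 to 41383590 on the plus strand. Its values were 0.276, 0.311 and 0.802 FPKM in sh-Luci-3d. They were 0.919, 0.619 and 1.40 FPKM in sh-Ptbp1-3d and 3.99, 3.64 and 3.91 FPKM in sh-Ptbp1-7d. The groups of 3 dpi overlapped through sh-Luci-3d replicate 3, and the 7 dpi libraries lay close together above both. The mean in sh-Ptbp1-7d was 3.93 times that in sh-Ptbp1-3d, a log2 difference of 1.93 (SE 0.341, limma adjusted p = 0.000814), and 8.30 times that in sh-Luci-3d (2.93, adjusted p = 4.47e-05). The difference between 7 and 3 dpi was 2.20 without sh-Ptbp1-3d replicate 3, the library with STMN2 and DCX, which also had the highest FOXO6 of its group. At 3 dpi the log2 difference from sh-Luci-3d was 0.99 (SE 0.341, adjusted p = 0.607). It was 1.39 without sh-Luci-3d replicate 3 (adjusted p = 0.0222), where it passed the thresholds, and 0.72 without sh-Ptbp1-3d replicate 3 (adjusted p = 0.826).

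Since FPKM is scaled to transcript length, the levels of the 4 factors could also be set beside each other within a library. Their summed level was 30.6 ± 0.497 FPKM in sh-Luci-3d, 33.5 ± 1.67 in sh-Ptbp1-3d and 23.9 ± 2.06 in sh-Ptbp1-7d (SD, n = 3). FOXO1 made up 5.24%, 5.41% and 5.09% of this sum in sh-Luci-3d, 4.62%, 5.50% and 5.53% in sh-Ptbp1-3d and 27.8%, 26.7% and 27.9% in sh-Ptbp1-7d. The shares of FOXO1 overlapped at 3 dpi and did not overlap between 3 and 7 dpi. The difference between the groups of sh-Ptbp1 was 22.2 percentage points (exact permutation test, two-sided, p = 0.1, the smallest that 3 libraries against 3 allow). Since FOXO1 rose and the sum fell without overlap between these groups, this p-value was fixed in advance and is no further support. Over the groups in the same order, the mean share of FOXO3 went from 88.0% to 86.0% to 47.7%, and that of FOXO6 from 1.52% to 2.96% to 16.2%. FOXO3 was still the highest of the 4 at 7 dpi. The order of the levels was FOXO3 first, FOXO1 and FOXO4 next and FOXO6 last at 3 dpi, with FOXO1 and FOXO4 overlapping in both groups, and FOXO3, FOXO1, FOXO6 and FOXO4 at 7 dpi, with no overlap between any neighbours.

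**Figure D1:**
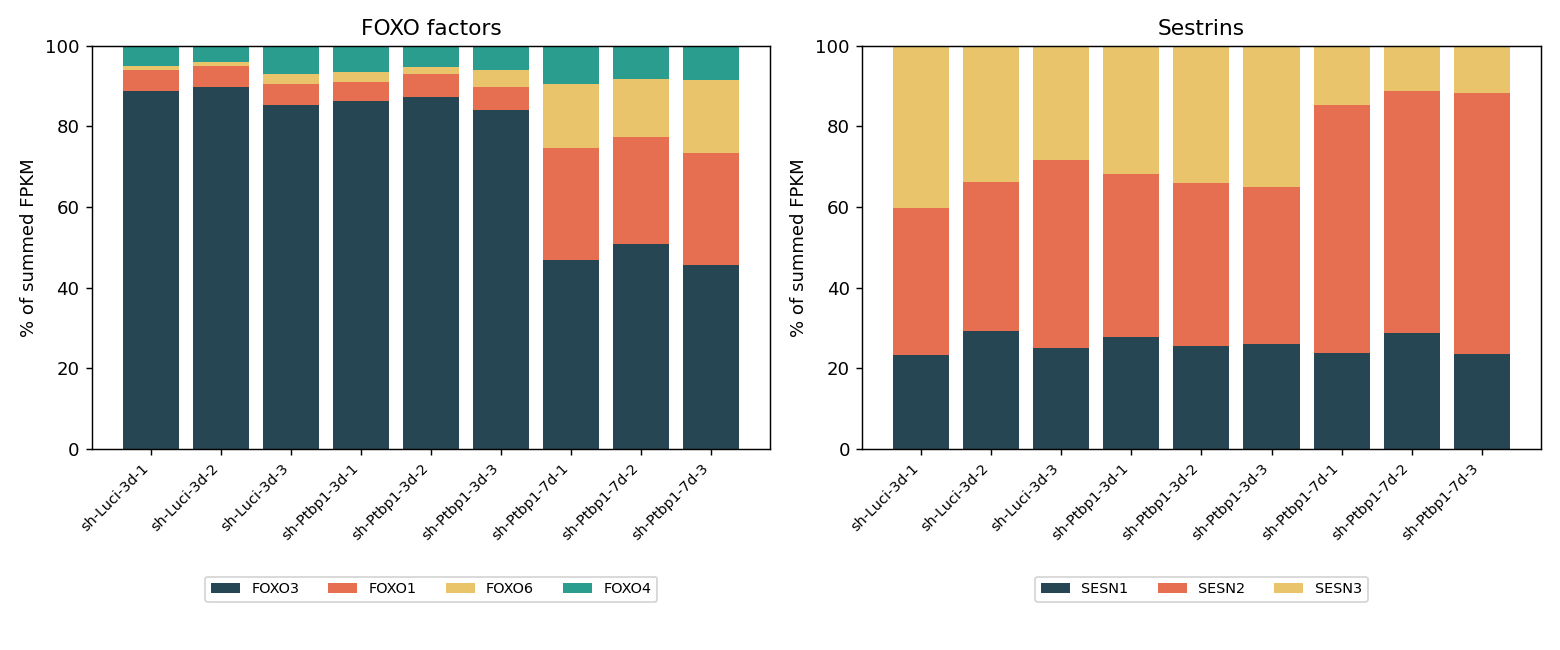
Share (percent, vertical axis from 0) of the summed FOXO FPKM (left) and of the summed sestrin FPKM (right) held by each gene in each of the 9 libraries. FOXO1 holds 26.7% to 27.9% of the FOXO sum in the 3 sh-Ptbp1-7d libraries against at most 5.53% in the others. SESN3 holds a lower and SESN2 a higher share of the sestrin sum in the sh-Ptbp1-7d libraries than in the others.

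The promoters of the 3 factors that changed, and of SESN3, the target that changed most, are shown to let the reader see what kind of sequence lies before each start (RefSeq, GRCh38.p14). Each is a stretch of 100 bases, which for the 3 factors ends at the RefSeq start and for SESN3 ends 66 bases before it, where the GENCODE gene begins, written 5′ to 3′ on the gene's own strand, in lower case except for matches to the motifs searched. FOXO1 is chr13:40666642-40666741, minus strand. FOXO3 is chr6:108559725-108559824, plus strand. FOXO6 is chr1:41361334-41361433, plus strand. SESN3 is chr11:95232542-95232641, minus strand.
FOXO1: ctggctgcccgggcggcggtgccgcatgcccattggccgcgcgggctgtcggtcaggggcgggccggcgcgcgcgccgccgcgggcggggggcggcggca
FOXO3: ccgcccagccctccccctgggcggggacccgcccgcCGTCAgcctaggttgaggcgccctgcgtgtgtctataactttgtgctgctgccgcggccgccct
FOXO6: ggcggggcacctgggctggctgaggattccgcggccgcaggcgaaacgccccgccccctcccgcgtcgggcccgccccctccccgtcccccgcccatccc
SESN3: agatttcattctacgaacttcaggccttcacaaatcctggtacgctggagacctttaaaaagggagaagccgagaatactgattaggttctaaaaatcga

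The stretches of FOXO1, FOXO3 and FOXO6 held 87%, 73% and 82% G or C with 20, 10 and 13 CpG, whereas that of SESN3, which lies farther from its RefSeq start, held 41% with 4 CpG. The promoters of all 10 genes, as 18 windows of 300 bases around RefSeq starts, were searched on both strands for GTAAACA and CAAAACA, which FOXO proteins are known to bind, and for TGACG, the core of the cAMP response element. GTAAACA was found in 2 of the 18 windows and in 3.42% of all 35116 promoter windows of this length. CAAAACA was found in 1 of the 18 and in 4.92% of all windows. TGACG was found in 3 of the 18, those of FOXO3, FOXO4 and SESN1, and in 24.6% of all windows. These matches describe letters in a window and not sites in use. The matches to the FOXO motifs are printed because the genes that hold them are themselves FOXO factors or targets, each as 30 bases with the motif in capitals. They begin 24 and 17 bases after a RefSeq start in FOXO4 and PIK3IP1 and 40 bases before it in IRS2. The stretches lie at chrX:71095863-71095892, plus strand, in FOXO4, at chr13:109786605-109786634, minus strand, in IRS2, and at chr22:31292454-31292483, minus strand, in PIK3IP1.
FOXO4: cccggcgagtgGTAAACAgagacgtcagga
IRS2: gagtcacatgtTGTTTTGctcttcttagtt
PIK3IP1: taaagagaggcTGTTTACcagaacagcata

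Of these 3 genes, FOXO4 and PIK3IP1 did not pass the test in any of the comparisons, and IRS2 passed on FDR alone in 1 of them.

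IRS2 and PIK3IP1 are the targets that feed back on PI3K. IRS2, an adaptor that couples the insulin receptor to PI3K, lies on chromosome 13 from 109752698 to 109786568 on the minus strand. Its values were 8.04, 8.14 and 8.25 FPKM in sh-Luci-3d but 9.86, 10.3 and 10.4 FPKM in sh-Ptbp1-3d and 8.24, 8.26 and 6.57 FPKM in sh-Ptbp1-7d. All 3 sh-Ptbp1-3d libraries were above the other 6, and it was the only gene of the 10 whose groups did not overlap at 3 dpi, where 10.8% of all genes did not. The log2 difference at 3 dpi was 0.32 (SE 0.103), with an unadjusted limma p of 0.0107 and an adjusted p of 0.572. From 3 to 7 dpi with sh-Ptbp1 IRS2 fell by 0.41 on the log2 scale (SE 0.103, adjusted p = 0.00726), below a fold of 2. This passed an FDR of 0.01 in 7 of 19 alternative fits, and the adjusted p reached 0.0399 with TPM. Without sh-Ptbp1-3d replicate 3, the highest of its group, the difference between 7 and 3 dpi was -0.39 (adjusted p = 0.0276). That at 3 dpi was then 0.30 (adjusted p = 0.797). Against sh-Luci-3d the 7 dpi libraries differed by -0.09 (adjusted p = 0.501). PIK3IP1, an inhibitor of PI3K, lies on chromosome 22 from 31281593 to 31292534 on the minus strand. It stood at 0.126, 0.0955 and 0.187 FPKM in sh-Luci-3d, at 0.144, 0.128 and 0.306 FPKM in sh-Ptbp1-3d and at 0.412, 0.184 and 0.244 FPKM in sh-Ptbp1-7d. The values were low, close to the filter, and all groups overlapped. Its log2 difference between 7 and 3 dpi was 0.38 (adjusted p = 0.394), and was 0.64 (adjusted p = 0.145) without sh-Ptbp1-3d replicate 3, the highest library of its group.

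The sestrins SESN1 and SESN3 are stress proteins that hold back mTORC1 through the GATOR complexes. SESN3 lies on chromosome 11 from 95165513 to 95232541 on the minus strand. Its values were 6.27, 5.52 and 4.06 FPKM in sh-Luci-3d as against 5.27, 5.48 and 5.72 FPKM in sh-Ptbp1-3d and 2.87, 2.23 and 2.02 FPKM in sh-Ptbp1-7d. The sh-Luci-3d libraries were spread on both sides of the sh-Ptbp1-3d libraries, and every 7 dpi library was below all 6. The mean at 7 dpi was 43.2% of that in sh-Ptbp1-3d, a log2 difference of -1.19 (SE 0.173, limma adjusted p = 0.000221), and the difference from sh-Luci-3d was -1.11 (adjusted p = 0.00034). Without sh-Ptbp1-3d replicate 3, the highest of its group, the difference between 7 and 3 dpi was -1.16 (adjusted p = 0.0025). SESN1, on chromosome 6 from 108986437 to 109094819 on the minus strand, stood at 3.62, 4.76 and 3.59 FPKM in sh-Luci-3d, at 4.60, 4.10 and 4.22 FPKM in sh-Ptbp1-3d and at 4.69, 5.71 and 4.05 FPKM in sh-Ptbp1-7d. The groups of SESN1 overlapped, and the log2 difference between 7 and 3 dpi was 0.14 (SE 0.153, adjusted p = 0.458). SESN2, the remaining sestrin, best known as a target of p53 and ATF4, was at 6.49 ± 0.169 FPKM after 3 and at 11.8 ± 0.465 FPKM after 7 days of knockdown (SD, n = 3) and rose by 0.85 on the log2 scale (SE 0.0934, adjusted p = 3.06e-05), which is below a fold of 2. SESN3 made up 34.1 ± 6.04% of the summed sestrin FPKM in sh-Luci-3d, 33.7 ± 1.68% in sh-Ptbp1-3d and 12.5 ± 1.85% in sh-Ptbp1-7d (SD, n = 3). The share of SESN3 differed by -21.2 percentage points between 7 and 3 dpi (exact permutation test, two-sided, p = 0.1, the smallest possible), while the sum went from 16.3 to 19.0 FPKM. As SESN3 fell and the sum rose without overlap between the groups of sh-Ptbp1, this p-value too was fixed in advance.

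CCNG2, an unusual cyclin linked to cell cycle arrest, lies on chromosome 4 from 77157151 to 77433388 on the plus strand. It was at 7.27, 7.70 and 6.34 FPKM in sh-Luci-3d, at 6.50, 7.72 and 6.96 FPKM in sh-Ptbp1-3d and at 5.17, 5.10 and 4.88 FPKM in sh-Ptbp1-7d. The groups of 3 dpi overlapped and the 7 dpi libraries were lower than all of them. CCNG2 fell by 0.47 on the log2 scale from 3 to 7 dpi (SE 0.108, limma adjusted p = 0.00404), below a fold of 2, and passed an FDR of 0.01 in 13 of 19 alternative fits, with an adjusted p of 0.0228 without sh-Ptbp1-3d replicate 2. CITED2, a brake on HIF-1 that competes for the coactivators CBP and p300, lies on chromosome 6 from 139371807 to 139374620 on the minus strand. It was at 16.7, 16.2 and 19.7 FPKM in sh-Luci-3d, at 19.8, 19.9 and 17.9 FPKM in sh-Ptbp1-3d and at 14.6, 17.0 and 17.6 FPKM in sh-Ptbp1-7d. The groups of sh-Ptbp1 did not overlap, but the log2 difference of -0.23 (SE 0.105) did not pass (adjusted p = 0.0965). For IRS2, SESN1, SESN3, FOXO6, CITED2 and PIK3IP1 the GENCODE v29 annotation places an antisense gene over part of the gene. LINC00598 overlaps FOXO1 on the same strand, and the non-coding gene AC092674.1 overlaps CCNG2 on the other strand. Pseudogenes also lie on the other strand within FOXO1, FOXO3, SESN3 and CCNG2. None of these partners has a value here and the use of strand in counting is not given, so reads of the partner cannot be told apart.

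**Figure D2:**
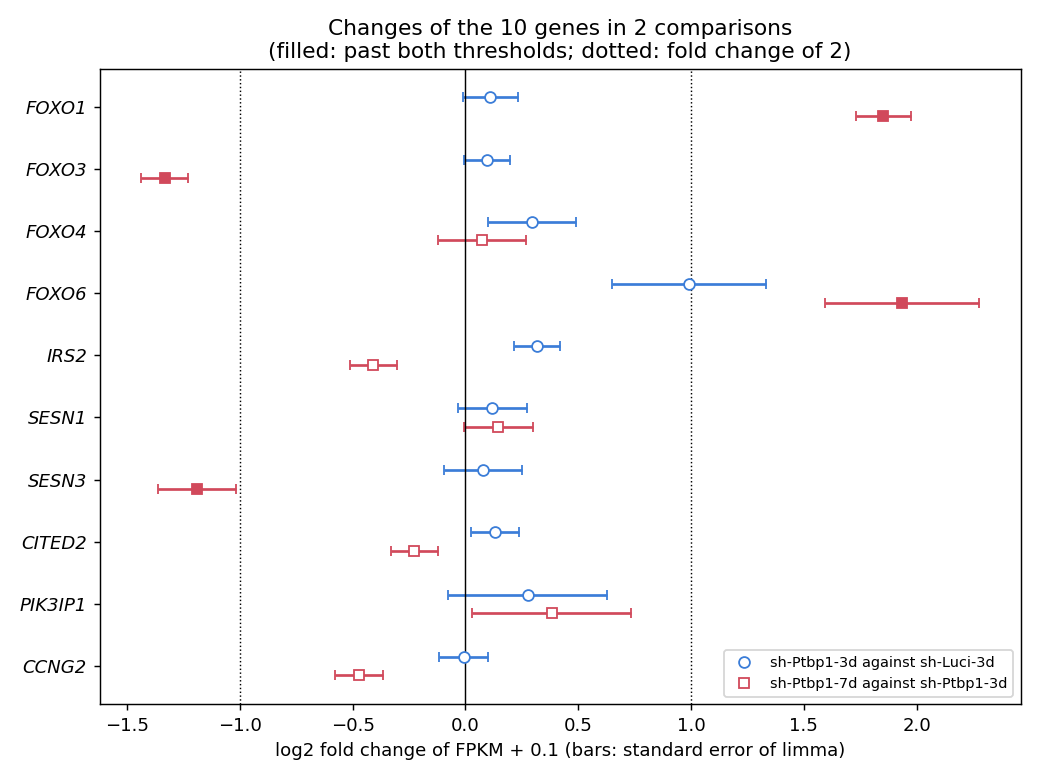
Log2 fold change of the 10 genes (horizontal axis, on the log2(FPKM + 0.1) scale) between the groups of 3 dpi (circles) and 7 against 3 dpi of knockdown (squares), with bars of 1 SE of limma, dotted lines at a fold of 2 and filled points past both thresholds. At 3 dpi all 10 lie between -0.01 and 0.99 and none passes, and from 3 to 7 dpi FOXO6 and FOXO1 lie near 2 and FOXO3 and SESN3 below -1.

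The comparison at 3 dpi asks what 3 days of PTBP1 knockdown changed. With the FDR set below 0.05 in limma and the same fold, 0 of the 10 genes passed, against 0.0129% of all genes tested. PTBP1 itself, with a log2 difference of -0.85 (adjusted p = 0.00314), met the FDR but not the fold. So few genes passed this rule that 0 of 10 says little about these genes. The study, whose test is not named, reported many more changed genes at 3 dpi at the same thresholds. The share given here therefore holds only for this fit of FPKM values. At an unadjusted p under 0.05, 2 of 10 passed, FOXO6 and IRS2, against 7.24% of all genes. The median difference was 0.13 on the log2 scale for the 10 genes and 0.01 for all genes tested. Against sh-Luci-3d, 4 of 10 passed in sh-Ptbp1-7d, 2 higher and 2 lower, and 14.6% of all genes did (8.93% higher and 5.68% lower). They were FOXO1, FOXO3, FOXO6 and SESN3. The groups of 5 of 10 did not overlap there, against 55.9%. CCNG2 was the fifth of these, at -0.48 (adjusted p = 0.00365). This comparison shares its 7 dpi libraries with the one before it and its control with the comparison at 3 dpi.

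Further genes known as FOXO targets moved in both directions. Of 30 listed, 26 were tested, and from 3 to 7 dpi of knockdown 6 rose and 2 fell past the thresholds, with 8.31% of all genes higher and 5.9% lower. On FDR alone 10 rose and 4 fell, against 20.3% and 15.5% of all genes. The median difference of the list was 0.28 on the log2 scale, against 0.09 for all genes. TXNIP, which binds thioredoxin and limits glucose uptake, rose from 10.9 to 229.7 FPKM (log2 4.40, SE 0.15, adjusted p = 8.68e-09). It was also among the study's own candidates. TNFSF10, the death ligand TRAIL, rose from 5.23 to 21.5 FPKM (log2 2.02, SE 0.169, adjusted p = 4.04e-06). Its mean in sh-Luci-3d was 8.1 FPKM, with every control library above those of sh-Ptbp1-3d. Against this control the 7 dpi difference was 1.43 (limma adjusted p = 4.84e-05). PCK1, a key enzyme of gluconeogenesis, was listed at 0 in all 6 libraries of 3 dpi and at 0.316, 0.365 and 0.370 FPKM in sh-Ptbp1-7d, so that no fold is given. It is counted in the 6 and the 10 that rose, but passed the filter only through its 7 dpi values. With a filter at 1 FPKM, 5 of the listed genes rose and 2 fell past the thresholds.

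FBXO32, the ubiquitin ligase atrogin-1 and a classical FOXO target of muscle, went the other way, from 39.3 to 10.3 FPKM (log2 -1.92, SE 0.0844, adjusted p = 4.5e-08). Its 7 dpi libraries held 10.8, 10.6 and 9.61 FPKM and those of sh-Ptbp1-3d 36.4, 39.5 and 41.9 FPKM. The other 4 genes past the thresholds were outside the rule for naming and were named after their values were seen. GABARAPL1, an autophagy protein, rose by 1.33, BCL6, a repressor, by 1.16 and BCL2L11, the death protein BIM, by 1.04 on the log2 scale. BCL2L11 was past the thresholds in 16 of 19 alternative fits, and its 7 dpi difference from sh-Luci-3d was 0.98, below a fold of 2. SOD2, the mitochondrial superoxide dismutase, fell by 1.003 and was past the thresholds in 9 of 19 alternative fits. CAT, the antioxidant enzyme catalase, was lower as well, by 0.97 on the log2 scale and so below a fold of 2, while CDKN1B, the cell cycle inhibitor p27, was higher by 0.62 (limma adjusted p = 0.000139).

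Of 24 genes of PI3K and AKT signalling reported here 22 were tested, of which 0 rose and 1 fell past the thresholds. PIK3CA, the catalytic subunit p110α, fell from 10.9 to 5.08 FPKM (log2 -1.10, SE 0.133, adjusted p = 5.93e-05). On FDR alone 1 rose, PIK3R3, against 20.3% of all genes. By the same rule 6 fell, against 15.5% of all genes, which were PIK3CA, PIK3CD, PIK3CB, IGF1R, SGK1 and TSC2, the last a brake on mTORC1 (log2 -0.45, adjusted p = 0.0017). The median of the list was -0.06, against 0.09 for all genes. The kinases AKT1 and AKT2 did not pass, with log2 differences of -0.05 and 0.03 (adjusted p = 0.676 and 0.861).

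Of 24 regulators of FOXO (14-3-3 proteins, kinases, deacetylases, coactivators and ubiquitin enzymes), all tested, 0 rose and 1 fell past the thresholds, against 8.31% and 5.9% of all genes. On FDR alone 4 rose and 8 fell, against 20.3% and 15.5%, with a median of -0.18. SIRT3, EP300, CREBBP and DYRK1A rose. The 14-3-3 genes YWHAQ, YWHAZ, YWHAE, YWHAB and SFN fell, as did MAPK9, PRMT1 and CDK2. YWHAQ went from 268.3 to 142.1 FPKM (log2 -0.92, limma adjusted p = 1.49e-06), and the 14-3-3 genes YWHAG and YWHAH did not pass. The gene past the thresholds was SFN, 14-3-3σ, which went from 0.754 to 0.161 FPKM (log2 -1.72, SE 0.428, adjusted p = 0.00667) and passed in only 7 of 18 alternative fits. Among 5 tested paralogs of the 10 genes and 12 partners of the sestrins, none passed both thresholds. CITED1, a paralog of CITED2, passed the fold alone, from 0.0391 to 0.356 FPKM (log2 1.74, adjusted p = 0.0118). On FDR alone SESN2 and NPRL2 rose and CCNG1 and RRAGA fell. CCNG1, the paralog of CCNG2, went from 28.6 to 14.3 FPKM (log2 -0.9959, adjusted p = 2.93e-05), just short of a fold of 2. The D-type cyclins CCND1 and CCND2 and MYC, all drivers of proliferation, are known to fall when FOXO is active. None of the 3 fell past the thresholds. MYC went from 5.46 to 3.55 FPKM (log2 -0.62, adjusted p = 0.0125), CCND2 had a value only in sh-Ptbp1-3d replicate 3, and CCND1 rose from 10.9 to 19.4 FPKM (log2 0.83, adjusted p = 1.62e-05). No gene of these lists passed the test at 3 dpi by limma.

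**Figure D3:**
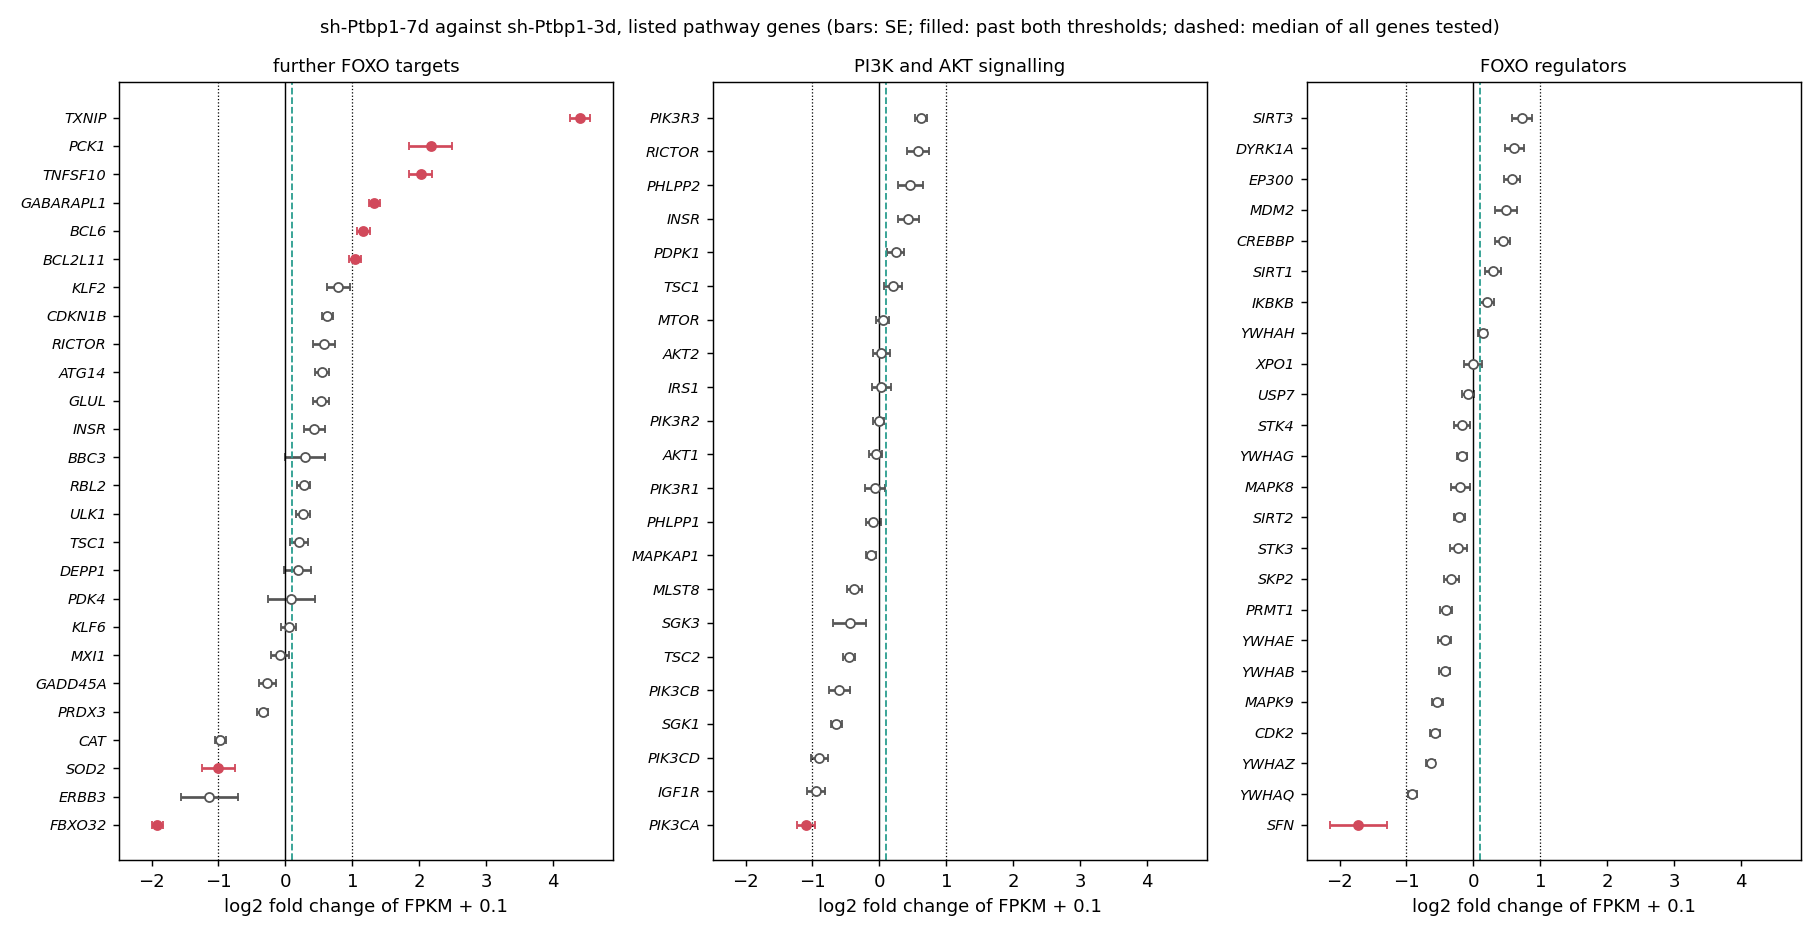
Log2 fold change from 3 to 7 dpi of knockdown (horizontal axis) for the tested genes of 3 lists around FOXO, with bars of 1 SE, dotted lines at a fold of 2, a dashed line at the median of all genes tested and filled points past both thresholds. The further FOXO targets reach from -1.92 (FBXO32) to 4.40 (TXNIP), PIK3CA passes among PI3K and AKT genes and SFN among regulators, and PCK1, listed at 0 at 3 dpi, is drawn at a fitted value that depends on the pseudocount.

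The pattern of FOXO1 over the 9 libraries was shared by many genes. Of 11339 genes with a symbol and a mean of at least 1 FPKM, 1136 had a Pearson r above 0.95 with FOXO1 on the log2 scale and 135 had one above 0.99. The 5 most alike were ZNF436 and SPRY2 (r = 0.998) and THSD7A, UNC5D and PLCL2 (r = 0.997). THSD7A and UNC5D passed the filter at 1 FPKM only through their 7 dpi values, with means of 8.55 and 3.76 FPKM. At 3 dpi their means were 0.33 and 0.19 FPKM with the control hairpin and 0.33 and 0.24 FPKM under knockdown. The filter thus lets in low genes that rose at 7 dpi, as FOXO1 did. Its part in the counts of 1136 and 135 was not tested. SPRY2, an inhibitor of receptor tyrosine kinase signalling, went from 2.60 and 2.96 FPKM at 3 dpi to 18.7 FPKM at 7 dpi. Within the 10 genes, r was -0.966 between FOXO1 and FOXO3, 0.891 between FOXO1 and FOXO6, 0.95 between FOXO3 and SESN3 and 0.936 between FOXO3 and CCNG2. These are descriptions over 9 points that fall into 3 groups and share their libraries.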

How the data were processed

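RNA of 9 U251 samples was sequenced by the study, and their labels put 3 in each of 3 groups. Deposited by the authors were FPKM values of 22295 entries, of which 2363 are loci assembled from the reads. The submitters' processing notes name HISAT2 and GRCh38, and the counting program and the handling of strand are not given in the sources used here. The authors also deposited positions of the assembled loci, used here only to look for overlap with the 10 genes, of which there was none. Low values showed no whole-read steps (the commonest ratio was shared by 1.36% of 442 low genes), so count tests were not used.

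For 15551 entries with a mean of at least 0.1 FPKM, log2(FPKM + 0.1) was fitted in limma 3.58.1 (R 4.3.3). A single model held the 3 groups and 9 libraries, with an intensity trend, and two-sided p-values received a Benjamini-Hochberg adjustment over all entries tested. On this scale the change of low genes is understated. Thresholds followed the study's methods, more than a 2-fold change and an FDR below 0.05 at 3 dpi or below 0.01 for 7 against 3 dpi, the latter also used for 7 dpi against sh-Luci-3d. The fit was also run on data simulated with normal noise on the log2 scale, which cannot show whether the model suits FPKM values. Shares were compared by exact permutation tests with scipy 1.17.1, and figures drawn with matplotlib 3.10.9 in Python 3.11.15. Promoters came from RefSeq and gene positions from GENCODE v29. Protein sequences were not used here.

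The 10 genes, the lists and the alternatives were chosen with earlier results of these data known. Named were the 10 genes, PTBP1, up to 4 genes of each list with the largest change past the thresholds between 7 and 3 dpi, and the 5 genes most like FOXO1. Other genes were named after their values were seen, as were those given to describe a list on FDR alone. Alternatives were TPM, quantile normalization and median-ratio scaling, other pseudocounts (1 and 0.01), a filter at 1 FPKM or none, the replicate number as a block, a model without the trend or with only the 2 groups compared, and leaving out each library. Of the listed genes, TRIM63, IGFBP1, SELENOP, INPP4B, INPP5D, IRS4 and the gene with the older symbol G6PC were below the filter. Some genes of the lists are not reported here and were left out of the lists' counts.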

Additional observations from a re-analysis of the deposited data

How the results depend on the processing

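FOXO1 and FOXO3 were past the thresholds between 7 and 3 dpi in all 19 alternatives, and FOXO6 and SESN3 in 18 of 19. FOXO6 missed an FDR of 0.01 without the filter (adjusted p = 0.0101), and SESN3 missed the fold at a pseudocount of 1 (-0.95, and -0.89 against sh-Luci-3d), as it did against sh-Luci-3d without sh-Luci-3d replicate 1 (-0.98). At 3 dpi, 0 of the 10 genes passed in 18 of 19 alternatives, and 1, FOXO6, passed without sh-Luci-3d replicate 3 (leaving out 1 library gave 0 to 1). The count over all genes at 3 dpi was 2. It was 1 with a pseudocount of 0.01, TPM, a filter at 1 FPKM, quantile normalization, median-ratio scaling or no trend, 0 with the replicate block or the 2 groups alone, and 0 to 57 when a library was left out, the 57 without sh-Luci-3d replicate 3. At a pseudocount of 1, by which folds of low genes shrink, the counts over all genes fell from 2211 to 1255 (7 against 3 dpi) and from 2271 to 1269 (7 dpi against sh-Luci-3d), further FOXO targets from 8 to 5, and PI3K and AKT genes from 1 to 0, which were 2 with median-ratio scaling, 3 after quantile normalization and 1 to 2 without single libraries (2 without sh-Ptbp1-7d replicate 1 or 2). The 1 regulator, SFN, was lost (0) at a pseudocount of 1, without the filter, with a filter at 1 FPKM, without the trend, with the replicate block and with the 2 groups alone, and the count was 0 to 1 without single libraries.

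Small differences changed sign when a library was left out. At 3 dpi, CCNG2 ranged from -0.0857 to 0.0529, and SESN3 from -0.0987 (without sh-Luci-3d replicate 3) to 0.2096. The FOXO1 share (main difference -0.0296 percentage points) ranged from -0.186 to 0.269, and the SESN3 share (main difference -0.400) from -3.35 to 2.68. Between 7 and 3 dpi FOXO4 was -0.10 after quantile normalization and ranged from -0.0171 (without sh-Ptbp1-7d replicate 1) to 0.1653, and IRS2 against sh-Luci-3d from -0.1442 to 0.0191 (without sh-Ptbp1-7d replicate 3). The median of all genes between 7 and 3 dpi was 0.09, and 0.20 with TPM, 0.03 with median-ratio scaling and -0.007 after quantile normalization, which moved the higher calls from 58.5% to 49.3%, and from 61.1% to 49.2% against sh-Luci-3d. The replicate numbers did not pair the libraries (correlations of same-numbered deviations from -0.032 to 0.051), and with the replicate number as a block 2140 and 2217 genes passed in the comparisons with 7 dpi and no call of the 10 genes on both thresholds changed, while IRS2 between 7 and 3 dpi missed the FDR (adjusted p = 0.0121). The cause of these changes was not tested. Depth is unknown, which limits what can be said of PIK3IP1 and other genes near the filter.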
